A study of Homo sapiens with 6 samples.

Results

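VEGFA, VEGFB, VEGFC, PGF, ANG, ANGPTL4, ANGPTL6, ANGPTL8 and NRP1 encode vascular growth factors, the secreted ribonuclease angiogenin, liver-secreted angiopoietin-like proteins and a VEGF co-receptor. They were taken by gene symbol from the 20332 genes of the count table, in which all 9 were listed once. Of these, 7 had enough counts for a test and 2, ANGPTL6 and ANGPTL8, did not. Their mRNA was measured by RNA sequencing in Huh-7, an established human liver cancer line, in which 3 negative control samples were compared with 3 samples of cells carrying stable RAC3 overexpression. The genotype label of the controls was WT. The genotype labels of RAC3 overexpression samples 2 and 3 read RAC4 overexpression and RAC5 overexpression, whereas the titles of all 3 samples read RAC3, and the samples were grouped by title. RAC3 mRNA lay between 31.4 and 35.6 CPM (counts normalized for library size) in the controls and between 225.4 and 239.6 CPM in the samples titled RAC3. The cells were made by lentiviral transduction, the promoter of the transgene and the number of clones were not given in the sources used here, and the study calls the RNA samples independent without saying whether they came from separate cultures, so p-values measure only the spread between these samples, which may be technical. Samples held 13855762 to 18199888 counts on genes, and a count of 0 allows up to 0.167 to 0.215 CPM (3 counts), for counting error only.

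VEGF family ligands are secreted dimers that bind receptor tyrosine kinases on endothelial cells. VEGFA drives sprouting and permeability through the receptor KDR, VEGFC drives lymphatic growth through FLT4, and VEGFB and placental growth factor (PGF) bind FLT1. Neuropilin 1 (NRP1) is a co-receptor that presents VEGFA to KDR and also binds semaphorins. Angiogenin (ANG) cleaves RNA and stimulates vessel growth. Angiopoietin-like proteins resemble angiopoietins in structure but do not bind the receptor TEK. ANGPTL4 and ANGPTL8 restrain lipoprotein lipase, and ANGPTL6 is a circulating metabolic factor made in the liver. In tumour cells VEGFA and ANGPTL4 are well known to be induced by low oxygen through hypoxia-inducible factors (HIF), and ANGPTL4 is also a target of the fatty acid sensing PPAR receptors.

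Promoter sequences were taken from a table of RefSeq promoters (GRCh38.p14), which matched 7 of the 9 genes, all but VEGFA and NRP1, and were searched over the 250 bases before each transcription start. Those of VEGFB and ANGPTL4, whose mRNA was called lower, and of VEGFC, whose mRNA did not pass the test, are shown. The call of ANGPTL4 was lost under 8 of 16 alternative analyses. In these sequences the core of the hypoxia response element, a well known control element of ANGPTL4, was looked for. It could not be looked for in VEGFA, which had no promoter sequence. Elements further from the start or inside the gene lie outside the 250 bases, and no PPAR element was searched. The sequences are written 5′ to 3′ on the strand of the gene and end at the RefSeq start, or before the first base that GENCODE 29 places in an exon of the gene. The ANGPTL4 stretch lies between exons of longer GENCODE transcripts of that gene. Capitals mark the hypoxia response cores ACGTG and GCGTG on either strand, so that a core on the opposite strand reads CACGT or CACGC. The VEGFB stretch is chr11:64234334-64234537 on the plus strand, that of ANGPTL4 is chr19:8363905-8364150 on the plus strand, and that of VEGFC is chr4:176792923-176793172 on the minus strand.
VEGFB: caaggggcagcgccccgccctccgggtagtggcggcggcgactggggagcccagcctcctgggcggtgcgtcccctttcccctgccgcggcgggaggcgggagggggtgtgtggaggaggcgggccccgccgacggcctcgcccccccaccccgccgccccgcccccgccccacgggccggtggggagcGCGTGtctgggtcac
ANGPTL4: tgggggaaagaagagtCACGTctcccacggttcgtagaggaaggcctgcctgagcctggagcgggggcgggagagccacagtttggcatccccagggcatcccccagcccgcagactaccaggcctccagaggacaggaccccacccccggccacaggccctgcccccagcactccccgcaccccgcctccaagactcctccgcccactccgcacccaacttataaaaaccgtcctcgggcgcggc
VEGFC: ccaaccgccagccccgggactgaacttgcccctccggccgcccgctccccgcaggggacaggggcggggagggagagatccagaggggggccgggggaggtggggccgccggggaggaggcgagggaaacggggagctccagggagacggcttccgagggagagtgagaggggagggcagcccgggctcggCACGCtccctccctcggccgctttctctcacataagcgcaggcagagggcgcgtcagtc
Each of these promoters held 1 core. In VEGFB it was GCGTG, beginning 61 bases before the start, in ANGPTL4 ACGTG on the opposite strand, 234 bases before it, and in VEGFC GCGTG on the opposite strand, 59 bases before it. Of 34943 promoters of the same length, 18.5% held ACGTG and 32.2% held GCGTG on either strand, so the letters alone are common. The VEGFB promoter was 82.8% G and C, that of VEGFC 74% and that of ANGPTL4 68.8%, against a median of 58% over all promoters. VEGFB held 6 GC boxes (GGGCGG, either strand, present in 42.5% of promoters) in the full 250 bases, and ANGPTL4 held a TATA box (TATAAA, 10.8% of promoters) 29 bases before its start. No member promoter held the E-box CACGTG (6.32% of promoters), which would contain ACGTG, or the SOX core AACAAT (8.99%), and 1 start of ANG and the start of ANGPTL8 held CCAAT (32%). These are matches of letters in a window and not shown binding sites.

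Of the 7 tested genes, VEGFA, VEGFB and ANGPTL4 were lower with RAC3 overexpression (adjusted p below 0.05, edgeR's quasi-likelihood test) and none was higher. VEGFC, PGF, ANG and NRP1 did not pass. Among all 12941 genes tested, 28.5% passed in either direction, 15.3% lower and 13.3% higher. VEGFB and ANGPTL4 were also past the fold change of 1.5 with an unadjusted p below 0.05 used by the study, which 4.68% of all genes passed, 2.99% lower. VEGFA, VEGFB, VEGFC and PGF had groups whose samples did not overlap, as did 42.5% of all genes. The median log2 fold change of the 7 genes was -0.41, beside 0.00 (0.0036) over all genes. In bulk RNA fewer cells expressing a gene and less RNA in each cell cannot be told apart.

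**Figure D1:**
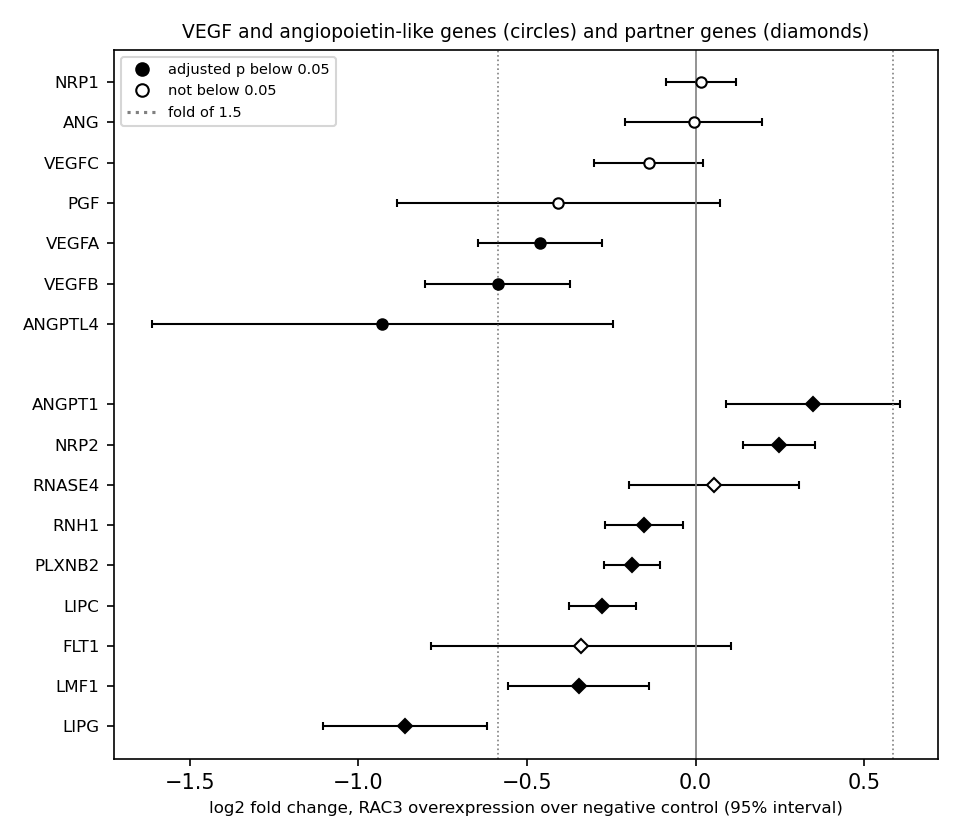
log2 fold change (RAC3 overexpression over negative control, n = 3 per group) of the 7 tested genes as circles and of the tested receptor, angiopoietin, ribonuclease and lipase partners as diamonds, with 95% intervals. Filled symbols have an adjusted p below 0.05, dotted lines mark a fold change of 1.5, and VEGFA, VEGFB and ANGPTL4 are the filled circles, all to the left of 0.

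On a per-length scale VEGFA was the most abundant of the genes in control cells. The authors' FPKM values (fragments normalized for gene length and library size) were 54.2 ± 7.92 (SD, n = 3) for VEGFA, 42.0 ± 3.17 for NRP1, 17.6 ± 1.77 for VEGFC, 13.7 ± 1.17 for ANG, 9.87 ± 0.271 for VEGFB, 4.94 ± 3.16 for ANGPTL4 and 2.26 ± 0.206 for PGF. The samples of neighbours in this order did not overlap, except for ANGPTL4 and PGF. With RAC3 overexpression NRP1 averaged 44.5 ± 5.87 FPKM and VEGFA 40.0 ± 1.84 FPKM, and the samples of these genes overlapped. VEGFC had 16.6 ± 0.495 FPKM, ANG 14.3 ± 0.106, VEGFB 6.86 ± 0.483, ANGPTL4 2.66 ± 0.736 and PGF 1.78 ± 0.389 with RAC3 overexpression, and ANGPTL4 and PGF again overlapped. ANGPTL6 was at 0 FPKM in 4 of 6 samples and ANGPTL8 in 5 of 6.

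**Figure D2:**
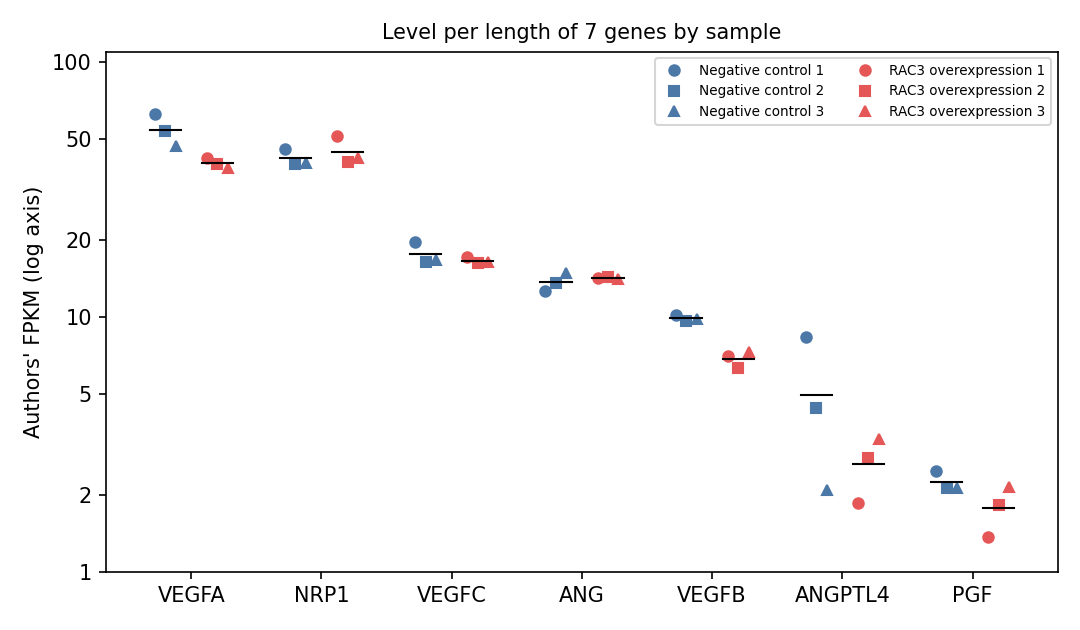
FPKM per sample on a log axis for the 7 tested genes, ordered by mean level, with negative controls in blue, RAC3 overexpression in red and a line at each group mean (n = 3 per group). VEGFA falls from a mean of 54.2 to 40.0 FPKM and VEGFB from 9.87 to 6.86 without overlap, while the ANGPTL4 groups overlap.

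VEGFA, the main driver of vessel sprouting (chr6:43770184-43786487, plus strand, GRCh38, GENCODE 29), fell by 27.4%. It had 181.6, 136.7 and 126.0 CPM in negative controls 1, 2 and 3, and 108.4, 106.3 and 106.9 CPM in RAC3 overexpression samples 1, 2 and 3. Every control lay above every RAC3 sample, and the controls were spread widely (coefficient of variation 19.9%) whereas the RAC3 samples lay close together (1.02%). The log2 fold change was -0.46 (standard error 0.0881, 95% interval -0.65 to -0.28, adjusted p = 0.000662 by edgeR). Negative control 1 was the highest sample, and without it the log2 fold change was -0.30 (adjusted p = 0.000371 by edgeR). The exact permutation test, two-sided, gave p = 0.1, the smallest that 3 samples against 3 can give, and gave the same for VEGFB, VEGFC and PGF. VEGFA shares 188 exon bases with an antisense RNA on the opposite strand, AL136131.3, and whether the counting used strand was not given in the sources used here.

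VEGFB, a ligand of FLT1 linked to fatty acid handling in endothelium (chr11:64234538-64238793, plus strand), fell by 33.4% with a narrow spread in both groups. The controls had 18.8, 17.6 and 17.8 CPM and the RAC3 samples 12.2, 11.2 and 12.8 CPM. The groups were far apart against a coefficient of variation of 3.46% in the controls and 6.68% with RAC3 overexpression. The log2 fold change was -0.59 (standard error 0.103, 95% interval -0.80 to -0.37, adjusted p = 0.000299 by edgeR), which is at the edge of the 1.5-fold threshold.

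VEGFC, the lymphatic growth factor (chr4:176683538-176792727, minus strand), and PGF (chr14:74941834-74955784, minus strand) did not pass the test. VEGFC had 45.7, 37.9 and 38.2 CPM in the controls and 37.8, 36.2 and 36.3 CPM in the RAC3 samples. The lowest control lay just above the highest RAC3 sample, and control 1 stood apart from the other samples. Its log2 fold change was -0.14 (95% interval -0.30 to 0.02, adjusted p = 0.190 by edgeR), and -0.053 without control 1 (adjusted p = 0.660). PGF had 4.44, 3.73 and 3.74 CPM in the controls and 2.31, 3.10 and 3.62 CPM with RAC3 overexpression, from 41 to 67 counts a sample. Its log2 fold change of -0.41 had an interval of -0.89 to 0.07 (adjusted p = 0.199 by edgeR), so a fall as large as that of VEGFA was within what these counts allow.

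The mix of VEGF ligands was described as each ligand's share of their summed FPKM. The sum of VEGFA, VEGFB, VEGFC, PGF and VEGFD was 84.1 ± 9.91 FPKM in the controls and 65.4 ± 1.95 FPKM with RAC3 overexpression. VEGFA made up 64.4% ± 2.15 of it in the controls and 61.2% ± 1.32 with RAC3 overexpression. Its shares overlapped, with 61.9% in control 3 and 62.0% in RAC3 sample 1. VEGFC made up 20.7%, 20.1% and 22.1% in the controls and 25.4%, 25.3% and 25.5% in the RAC3 samples. The VEGFC shares of the groups did not overlap although its own level did not pass the test, since a share moves with the other ligands. VEGFB made up 11.8% ± 1.15 and 10.5% ± 0.751, and PGF 2.69% ± 0.127 and 2.74% ± 0.664, and the shares of the groups overlapped for both. VEGFD, the other lymphatic ligand, had 22 counts over the 6 samples and made up under 1% in each. Shares were not tested.

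NRP1, the VEGF co-receptor (chr10:33177492-33336262, minus strand), did not pass the test. It had 170.4, 157.3 and 154.8 CPM in the controls and 166.0, 157.2 and 164.7 CPM in the RAC3 samples. The samples were interleaved, and the log2 fold change of 0.02 had an interval of -0.09 to 0.12 (adjusted p = 0.836 by edgeR). NRP1 shares 561 exon bases with the antisense RNA AL121748.2. Its paralog NRP2, which binds VEGFC, rose from 96.2, 101.3 and 94.1 CPM to 116.2, 115.2 and 114.7 CPM, with a log2 fold change of 0.25 (95% interval 0.14 to 0.35, adjusted p = 0.00124 by edgeR). FLT1, the receptor of VEGFA, VEGFB and PGF, had 4.16, 3.93 and 4.29 CPM in the controls and 3.26, 2.73 and 3.83 CPM with RAC3 overexpression, and did not pass (log2 fold change -0.34, adjusted p = 0.249 by edgeR). KDR had 2 counts in 1 RAC3 sample and 0 elsewhere, and FLT4 had 0 in all 6 samples. KDR and FLT4 were thus at or under the floor of 3 counts in every sample, while FLT1 was measured at a low level.

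ANG, angiogenin (chr14:20684177-20698971, plus strand), did not pass the test. The controls had 15.9, 16.8 and 18.5 CPM and the RAC3 samples 17.0, 17.2 and 17.0 CPM, all within the range of the controls. The log2 fold change was -0.01 (95% interval -0.21 to 0.20, adjusted p = 0.971 by edgeR). ANG and its neighbour RNASE4 share 675 exon bases on the same strand, so that reads there can be counted to either gene, and both are uncertain for that reason. RNASE4 had 23.8 ± 4.07 CPM in the controls and 24.9 ± 4.26 CPM with RAC3 overexpression (log2 fold change 0.05, adjusted p = 0.774 by edgeR). RNH1, the cytosolic inhibitor that binds angiogenin, fell from 177.9 ± 10.2 to 160.2 ± 10.8 CPM (log2 fold change -0.15, adjusted p = 0.0446 by edgeR), and its groups overlapped. PLXNB2, the plexin that acts as angiogenin receptor, fell from 1127 ± 55.8 to 989.7 ± 19.9 CPM (log2 fold change -0.19, adjusted p = 0.00160 by edgeR).

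ANGPTL4, the fasting- and hypoxia-induced lipase inhibitor (chr19:8363289-8374373, plus strand), had the lowest log2 fold change of the genes and also the widest spread. The controls had 15.8, 8.26 and 3.90 CPM (221, 124 and 70 counts) and the RAC3 samples 3.38, 5.16 and 6.03 CPM (60, 85 and 85 counts). Control 3 lay below RAC3 samples 2 and 3, so the groups overlapped, and the coefficient of variation was 64.7% in the controls. The log2 fold change was -0.93 (standard error 0.328, 95% interval -1.61 to -0.24, adjusted p = 0.0398 by edgeR), and the exact permutation test gave p = 0.3. The call rested on single samples. Without control 1 the log2 fold change was -0.32 (adjusted p = 0.424 by edgeR), without control 2 -1.005 (adjusted p = 0.0696), without RAC3 sample 1 -0.71 (adjusted p = 0.194) and without RAC3 sample 2 -0.98 (adjusted p = 0.0779). It was also lost with DESeq2 at nearly the same log2 fold change (-0.94, adjusted p = 0.269), with limma-voom (-0.70, adjusted p = 0.160), with limma on log2(FPKM + 1) (-0.58, adjusted p = 0.270) and after removal of the trend with GC content (-0.72, adjusted p = 0.116).

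**Figure D3:**
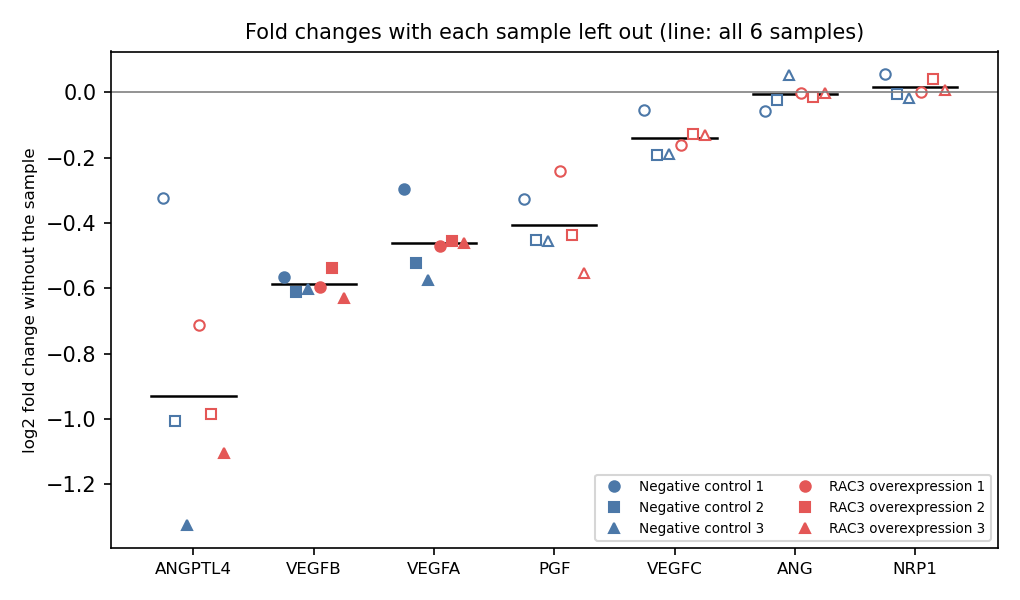
log2 fold change of each tested gene after leaving out 1 of the 6 samples (symbol: the sample left out, filled where the adjusted p stayed below 0.05), with a line at the value from all 6. VEGFA and VEGFB stay filled and below 0 throughout, whereas ANGPTL4 ranges from -1.33 to -0.32.

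ANGPTL6 (chr19:10092338-10102796, minus strand) had 0, 0 and 2 counts in the controls and 0, 1 and 0 in the RAC3 samples. ANGPTL8 (chr19:11237450-11241943, plus strand), an insulin-responsive hepatic gene, had 2 counts in RAC3 sample 2 and 0 in the other samples. Both were at or under the floor in every sample, so neither a level nor a fold could be given. ANGPTL6 shares 442 exon bases with C19orf66 and ANGPTL8 350 with DOCK6, both on the opposite strand. Of the other angiopoietin-like genes reported here, ANGPTL2 had 1.42 ± 0.658 and 1.64 ± 0.0633 CPM (adjusted p = 0.744 by edgeR). ANGPTL5 had 5 counts in all, and ANGPTL1 and ANGPTL7 had 0.

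The lipases that angiopoietin-like proteins act on were lower where they were measured. LIPG, endothelial lipase, fell from 15.4, 17.3 and 15.4 CPM to 9.57, 8.32 and 8.51 CPM (log2 fold change -0.86, standard error 0.117, adjusted p = 2.3e-05 by edgeR). LIPC, hepatic lipase, fell from 169.4 ± 0.771 to 139.9 ± 6.66 CPM (log2 fold change -0.28, adjusted p = 0.000283 by edgeR). LMF1, the factor that matures lipases in the endoplasmic reticulum, fell from 16.9 ± 0.490 to 13.3 ± 0.478 CPM (log2 fold change -0.35, adjusted p = 0.0135 by edgeR). The groups of each of these 3 genes did not overlap, as was so for 42.5% of all genes. LPL, lipoprotein lipase itself, had 2 counts in all and its endothelial anchor GPIHBP1 had 0.

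Among the angiopoietins proper, ANGPT1, the stabilising ligand of TEK, rose from 10.2, 15.2 and 13.6 CPM to 17.2, 16.0 and 16.5 CPM (log2 fold change 0.35, 95% interval 0.09 to 0.61, adjusted p = 0.0407 by edgeR). Control 1 was the lowest sample for ANGPT1 and for ANG, and the highest of the 6 samples for the other tested members, VEGFA, VEGFB, VEGFC, PGF, ANGPTL4 and NRP1. ANGPT2 had 1 count in all, ANGPT4 and TEK had 0 and TIE1 had 9. Endothelial markers were near absent, with 3.62 to 6.01 CPM summed over 10 genes in every sample, PECAM1 the highest of them and TEK, ERG and EMCN at 0. Hepatocyte markers summed to 5081 to 5619 CPM, with ALB the highest and APOA1 the lowest, and all 10 were tested. Immune markers summed to 40.9 to 50.7 CPM, led by CD14. Stromal markers summed to 232.8 to 249.2 CPM in the controls and 272.9 to 285.3 CPM with RAC3 overexpression, led by LUM. They did not move together. Of 5 tested, LUM (log2 fold change 0.22) and COL1A2 (0.51) were called higher and COL1A1 (-0.22) lower, with 2 not called. ACTA2 and DCN had 16 and 15 counts in all. The part of stromal markers in the results was not tested.

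Hypoxia-induced genes were set beside VEGFA and ANGPTL4. Among all genes tested, 15.3% were lower and 13.3% higher at an adjusted p below 0.05, and 2.99% were lower past the 1.5-fold threshold. Of 25 hypoxia-induced genes 24 were tested, and 20 were lower and 1 higher at that adjusted p. Of these 24 genes, 12 were past the 1.5-fold threshold, all lower. Their median log2 fold change was -0.60. Among the 5 with the smallest p were LDHA, which makes lactate (log2 fold change -0.35), PGK1, a glycolytic kinase (-0.47), BNIP3, a mitophagy receptor (-0.85), and CA9, a carbonic anhydrase (-2.55). The median level of the list relative to the control mean was 0.33, -0.05 and -0.27 log2 units in controls 1, 2 and 3, and -0.58, -0.52 and -0.61 in the RAC3 samples. VEGFA stood at 0.31, -0.10 and -0.22 in the controls and at -0.43, -0.46 and -0.45 in the RAC3 samples. VEGFA and the list had the same order of controls, with control 1 the highest and control 3 the lowest. NRP1, which was not called (log2 fold change 0.02), also had this order at 0.08, -0.03 and -0.05, with controls 2 and 3 close together. ADM, itself in the hypoxia list and not called (0.08), had it at 55.7, 37.4 and 35.6 CPM. How many of all genes had this order was not counted. ANGPTL4 had this order too, at 0.99, 0.05 and -1.03, but in the RAC3 samples it ran from -1.24 to -0.41. VEGFB differed in that its controls lay between -0.04 and 0.06 and its RAC3 samples between -0.69 and -0.50. Without control 1 the median of the hypoxia list was -0.42. Culture density and oxygen were not given in the sources used here, and a link of these members to hypoxia was not tested.

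**Figure D4:**
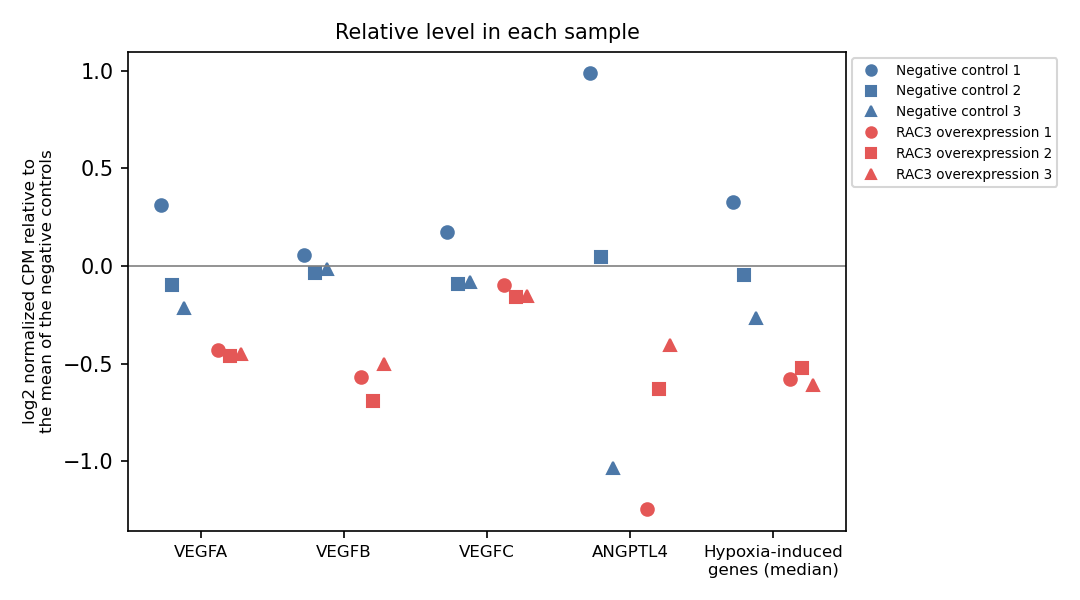
log2 normalized CPM of VEGFA, VEGFB, VEGFC and ANGPTL4 and the median of the 24 tested hypoxia-induced genes in each sample, relative to their mean in the 3 negative controls. Controls (blue) spread from 0.31 to -0.22 for VEGFA and from 0.33 to -0.27 for the list. The RAC3 samples (red) lie below the controls for VEGFA, VEGFB and the list, and just below them for VEGFC. The groups overlap for ANGPTL4.

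The list of regulators was mixed. It held oxygen sensing, PPAR and lipid regulators and also the glucocorticoid receptor NR3C1 and the transcription factor SOX6. Of its 21 genes, all tested, 6 were lower, 3 higher and 12 not called (15.3% lower and 13.3% higher among all genes). The median of the list was -0.06. The 3 called higher were EGLN2, NR3C1 and SOX6 (log2 fold change 0.20, adjusted p = 0.0186 by edgeR). The smallest p belonged to SREBF1, the lipogenic factor (-0.31), RXRA, the PPAR partner (-0.40), NR3C1, the glucocorticoid receptor (0.27), and the prolyl hydroxylases EGLN3 (-0.34, also in the hypoxia list) and EGLN2 (0.27). The HIF subunits were named after their values were seen. HIF1A had a log2 fold change of 0.07 (adjusted p = 0.325 by edgeR). EPAS1 (0.0086, adjusted p = 0.895) and ARNT (-0.04, adjusted p = 0.704) were not called either. HIF3A was lower (-0.997, adjusted p = 0.0124 by edgeR), from 21 to 55 counts a sample. It had 3.94, 2.60 and 2.73 CPM in the controls and 1.58, 1.28 and 1.77 CPM in the RAC3 samples. The activity of HIF proteins was not tested. Of 16 PPAR target genes, the other known input to ANGPTL4, 13 were tested, 3 were lower and 4 higher, with a median of 0.06. CREB3L3, a fasting factor (0.46), FABP1, the liver fatty acid binding protein (0.73), and SLC25A20, the carnitine carrier (0.27), rose, and ACADVL, a fatty acid oxidation enzyme (-0.16), fell.

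Other secreted angiogenic factors were mixed. Of 27 ligands 23 were tested, 9 were lower, 5 higher and 9 not called (15.3% lower and 13.3% higher among all genes). Their median was -0.07. CXCL5, a neutrophil chemokine (0.65), and the EGF receptor ligands EREG (0.80) and AREG (0.59) rose, and the matricellular factors CCN2 (-0.45) and CCN1 (-0.27) fell. Of 21 angiogenesis inhibitors 15 were tested, 4 were lower, 1 higher and 10 not called (28.5% called in either direction among all genes). Their median was -0.08. COL18A1, the source of endostatin (-0.34), AGT, angiotensinogen (-0.28), SERPINF1, pigment epithelium-derived factor (-0.40), and THBS1, thrombospondin (-0.12), fell, while ADAMTS1, a protease that binds VEGFA (0.29), rose.

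The genes whose pattern over the 6 samples was most like that of each called member were found among 11220 genes by the root mean square difference of log2 CPM relative to the control mean. For VEGFB these were F7, coagulation factor VII (0.0339), PRKCH (0.0386) and MMP11 (0.0452). For VEGFA they were GAB2 (0.0455), GPR157 (0.0519) and PWWP2B (0.0589). For ANGPTL4 the nearest genes were much further away, among them FUT11 (0.259) and HILPDA, a hypoxia-induced lipid droplet protein (0.387). Likeness over 6 samples of 2 groups is a description.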

How the data were processed

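Oligo(dT)-selected RNA of the 6 samples was made into libraries with a NEBNext Ultra kit for Illumina sequencing. The authors deposited 1 table with raw counts per gene and sample, not normalized, and FPKM values per sample, normalized by the authors for length and depth. The submitters' processing notes name Bowtie2 2.2.8, HISAT2, StringTie 1.3.1 and DESeq2. The genome build, annotation, counting tool and strand setting were not given in the sources used here. Gene positions, overlaps and GC content came from GENCODE 29 (GRCh38).

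The count test was that of edgeR 4.0.16 under R 4.3.3 (TMM, filterByExpr, quasi-likelihood F test, two-sided, Benjamini-Hochberg adjustment over 12941 genes, no covariate). The biological coefficient of variation was 0.0533. CPM are TMM-normalized. The main edgeR fit, and not the other steps, was tested on counts simulated with the same dispersion for all genes and samples. Alternatives used DESeq2 1.42.0, limma 3.58.1 (voom, and log2 of the authors' FPKM plus a pseudocount of 1), other scalings and filters (at least 10 counts in every sample, or any count), a replicate block, removal of the trend with GC content (lowess span 0.3) and each sample left out.

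The members and gene lists were chosen, and the lists written from general knowledge, with earlier results of these data known. Genes named from the longer lists are the 5 with the smallest p, those from marker lists the highest and lowest. Exceptions named after their values were seen are the HIF subunits, SOX6, ADM and the stromal markers other than LUM. Some genes that these rules name are not reported here. Likeness used genes with a mean of at least 50 counts.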

Additional observations from a re-analysis of the deposited data

How the results depend on the processing

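VEGFA and VEGFB were lower with an adjusted p below 0.05 under all 16 alternatives, with log2 fold changes of -0.57 to -0.30 and -0.63 to -0.41. The number of genes past that threshold was 2 or 3, ANGPTL4 being the one lost. ANGPTL4 ranged from -1.33 to -0.32 and was lost under 8 alternatives, for which the cause was not tested. Of the 2 genes past the 1.5-fold threshold, 1 was left with library size alone, DESeq2, limma-voom or the GC trend removed and 0 with limma on log2(FPKM + 1), and leaving out samples gave 0 to 2, with 0 without negative control 1, and 1 without RAC3 sample 1 or without RAC3 sample 2. ANG had a positive value with library size alone (0.0503), with the GC trend removed (0.0045), with FPKM (0.0563) and without negative control 3 (0.0536), ranging from -0.0574 to 0.0536 over the samples left out. NRP1 had -0.0521 with the GC trend removed, and -0.0162 to 0.0557 with samples left out, below 0 without negative control 2 (-0.0043) or 3 (-0.0162). Neither passed the test under any alternative.

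Library size alone moved the median of all genes to 0.06 and that of the regulators to -0.0035, of angiogenic ligands to -0.0145 and of inhibitors to -0.0248. At least 10 counts in every sample gave -0.12 for the ligands and -0.11 for the inhibitors. With samples left out the medians ranged from -0.12 to -0.0168 for regulators, -0.72 to -0.42 for hypoxia-induced genes, 0.0397 to 0.23 for PPAR targets, -0.11 to -0.0649 for ligands and -0.13 to -0.0814 for inhibitors.

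With the replicate block VEGFA had -0.45 (adjusted p = 9.4e-05 by edgeR), VEGFB -0.59 (adjusted p = 0.000501) and ANGPTL4 -0.82 (adjusted p = 0.0436), and 3 genes passed. The replicate numbers are not said to pair samples, and same-numbered samples did not deviate together (r = -0.14, -0.0692 and -0.0193 over 10169 genes). Depth limits PGF, ANGPTL6, ANGPTL8 and the receptors KDR and FLT4. Without the filter and by the FPKM values the count of all genes past the 1.5-fold threshold was 767 and 192, against 605.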

Other observations

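The length implied by the authors' values (counts over FPKM and library size) was not constant over samples for each gene. It was 2259 bases for VEGFC in all 6 samples, but 2511 to 2839 bases for VEGFA and 3322 to 4003 bases for NRP1, the lowest in RAC3 sample 1. NRP1 therefore had 51.2 FPKM in RAC3 sample 1, the highest of the 6, while its 166.0 CPM there lay within the range of the controls. Over 11217 genes the median ratio of the highest to the lowest implied length was 1.07, and it was 1.21 for NRP1 and 1.13 for VEGFA.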
